A study of Mus musculus with 12 samples.

Results

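The genes described here are Trp53, which encodes the transcription factor p53, and 9 of its established targets (Cdkn1a, Mdm2, Ccng1, Bax, Bbc3, Pmaip1, Zmat3, Phlda3 and Eda2r), chosen by gene name from the 37748 genes of the deposited table. They were measured by RNA-seq in the gastrocnemius, a calf muscle, of 12 mice aged 13 weeks, 3 in each of 4 groups, with 1 library per mouse. The control mice (ACTA1-MCM/+) carried MerCreMer, a Cre recombinase that tamoxifen (TMX) switches on and that the ACTA1 promoter drives in skeletal muscle, and their labels give no TMX. The FLExD mice (FLExDUX4/+) carried the conditional DUX4-fl transgene in the Rosa26 locus, with no Cre and no TMX. Cre turns this transgene into its expressed orientation, and the study describes low leaky expression in the line without Cre. Their GEO labels also carry the words "mild pathology", and the genotype was used here. DUX4 is the transcription factor misexpressed in facioscapulohumeral muscular dystrophy (FSHD). The moderate and severe mice (FLExDUX4/+; ACTA1-MCM/+) carried both transgenes and received TMX, as 1 injection of 5 mg/kg or as 2 injections of 10 mg/kg on consecutive days, and their muscles were taken on day 9. Recombination is mosaic and confined to muscle nuclei, so the libraries mix fibers with and without DUX4-fl and the cells that never carry it. The study also used ACTA1-MCM/+ controls injected with TMX, but the labels of these libraries give none, and on those labels the effects of TMX and of DUX4-fl cannot be told apart.

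p53 is held at a low level in resting cells, mainly by Mdm2, the ubiquitin ligase that marks it for destruction and is itself a p53 target. DNA damage and other stresses release p53 from this control, largely by changing the stability of the protein rather than the amount of its mRNA, and its targets then stop the cell cycle, repair damage or trigger apoptosis. p53 binds DNA at sites made of a pair of half-sites that lie next to each other or close together. Muscle fibers are post-mitotic, whereas the satellite cells, macrophages and fibroblasts that fill injured muscle divide.

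To describe the sequence near these genes, the stretch from 250 bases before to 50 bases after each RefSeq transcription start (GRCm38.p6) was searched on both strands. The search was for the p53 half-site consensus, 10 bases long, and for pairs of half-sites with at most 1 base between them. Both half-sites of a pair had to keep the central C and G of the consensus. RefSeq windows were found for 8 of the 10 genes, 11 windows in all, and Zmat3 and Pmaip1 are named only. An exact half-site stood in 5 of the 11 windows, against 8.36% of the 32851 windows searched, and a pair with at most 3 mismatches in 5 windows, against 2.82%. The best pairs are shown on the strand of the gene with 10 bases on either side, with the bases that match the consensus in capitals.
Cdkn1a, chr17:29090928-29090947, plus strand: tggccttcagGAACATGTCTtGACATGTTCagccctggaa
Ccng1, chr11:40755462-40755481, minus strand: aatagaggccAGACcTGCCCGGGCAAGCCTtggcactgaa
Bax, chr7:45467079-45467099, minus strand: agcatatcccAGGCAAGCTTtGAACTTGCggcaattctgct
Trp53, chr11:69580284-69580303, plus strand: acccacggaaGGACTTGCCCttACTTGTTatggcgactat
Bbc3, chr7:16309486-16309505, plus strand: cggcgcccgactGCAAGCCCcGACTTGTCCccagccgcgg
The Cdkn1a pair had 1 mismatch and began at position -51, counted from the start as 0, before the upstream of its 2 starts, whose window held a second exact half-site at -73. The Ccng1 pair also had 1 mismatch, at -195. The Bax pair had 2 mismatches and a spacer of 1 base, at -201. Pairs with at most 2 mismatches stood in 0.682% of the windows searched. The Trp53 and Bbc3 pairs had 3 mismatches each. The Mdm2 window held a single exact half-site, at -186, and the p53-responsive promoter of Mdm2 lies in its first intron, outside this window. The windows of Phlda3 and Eda2r held neither an exact half-site nor a pair within the limit. A match describes letters and not binding, and no binding was measured. The genes were picked as established p53 targets, so the comparison with the other windows is a description.

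Levels are given as CPM, that is, counts scaled to library sizes corrected with TMM factors, which centre most genes of the libraries on each other. The libraries held 23796902 to 29136403 counts, so a floor of 3 counts equals 0.0676 to 0.155 CPM. The TMM factors ranged from 0.706 to 0.760 in the single-transgenic mice, from 1.06 to 1.13 in the moderate mice and from 1.69 to 1.87 in the severe mice, so the scaling bears on every fold change below. A gene was called when edgeR's quasi-likelihood test gave a Benjamini-Hochberg adjusted p under 0.05 over the 16679 genes tested and the log2 fold change was at least 0.5 in size. All 10 genes passed the filter on low counts, Pmaip1 only through its severe libraries, so its values are given as a description with no p. The moderate and severe models are compared with the same 3 control mice.

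Against control muscle, 6 of the 9 genes other than Pmaip1 were called higher and 0 lower in moderate muscle, where 24.4% of all genes tested were called higher and 17.0% lower. Severe muscle had 5 of these 9 called higher and 1 called lower, where 32.9% of all genes were called higher and 27.9% lower. Their median log2 fold change was 0.73 for moderate and 0.62 for severe muscle, against 0.04 and 0.08 for all genes tested. Between the models themselves, 1 of the 9 was called higher in severe muscle and 3 in moderate muscle, where 17.6% and 18.8% of all genes were. Pmaip1 is left out of these counts, because only its severe libraries carried it past the filter.

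These counts moved with the scaling. With Pmaip1 included as a description, 7 of the 10 genes were called higher in moderate muscle with TMM factors. In severe muscle 6 were, and DESeq2 gave the same counts. Library size alone gave 9 higher and 0 lower in each. Under that scaling 52.5% of all genes were called higher and 4.51% lower in moderate muscle, and 75.4% and 6.42% in severe muscle. In limma on TPM, 8 genes were higher and 0 lower in moderate muscle, where 31.5% and 4.42% of all genes were, and 9 were higher and 1 lower in severe muscle, where 64.1% and 5.92% were. Between the models, both gave 5 of the 10 genes higher and 2 lower in severe muscle. The shares of all genes there were 57.8% and 4.93% with library size alone and 48.2% and 3.77% in limma. With TMM factors, 1 of the 10 genes was lower in moderate muscle at an unadjusted p under 0.05, and DESeq2 called 0 lower. At that unadjusted p, 9788 of the 16679 genes tested differed in either direction.

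**Figure D1:**
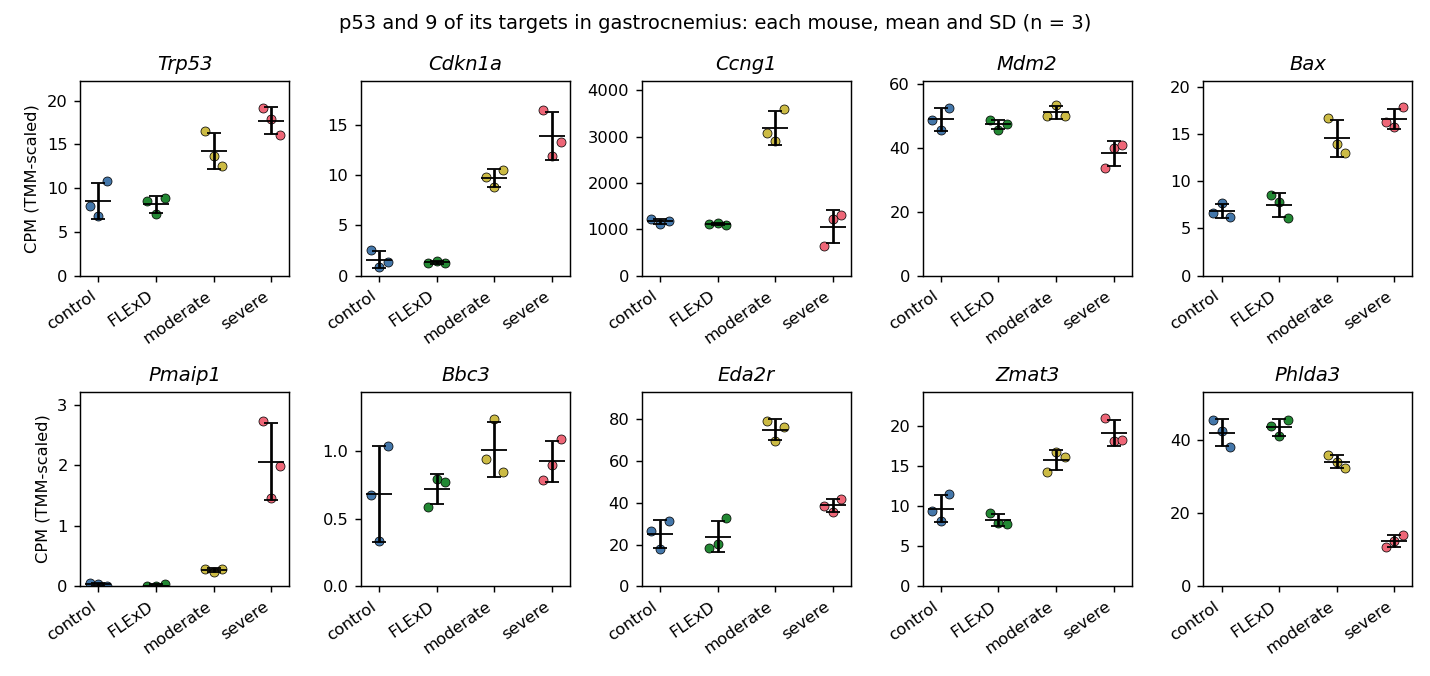
CPM on TMM-corrected library sizes (vertical axes, from 0, with a separate scale for each gene) of the 10 genes in each mouse of the 4 groups. Points are single mice, and the bars are the mean and SD of 3 mice. Trp53, Cdkn1a, Bax, Pmaip1 and Zmat3 were higher in every moderate and severe mouse than in every control, Ccng1 and Eda2r peaked in the moderate mice, and Phlda3 was lowest in the severe mice.

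Trp53 itself (chr11:69580359-69591873 in GENCODE M21) stood at 7.98, 6.84 and 10.8 CPM in the controls and at 8.51, 7.09 and 8.92 CPM in the FLExD mice. It stood at 16.5, 13.7 and 12.5 CPM in the moderate mice and at 19.1, 17.9 and 16.1 CPM in the severe mice. All 6 mice with both transgenes lay above all 6 mice with one of them. Trp53 mRNA rose by 0.73 ± 0.16 (SE) on the log2 scale in the moderate model (adjusted p = 0.00133) and by 1.05 ± 0.16 in the severe model (adjusted p = 3.07e-05). The moderate and severe ranges overlapped, and the difference between them did not pass the test (0.32 ± 0.15, adjusted p = 0.0905).

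Among the targets that act on the cell cycle, Cdkn1a encodes p21, the inhibitor of cyclin-dependent kinases (CDKs) through which p53 halts division. Its levels were 2.59, 0.915 and 1.33 CPM in the controls and 1.23, 1.44 and 1.3 CPM in the FLExD mice. They were 9.87, 8.79 and 10.5 CPM in the moderate mice and 16.5, 11.9 and 13.3 CPM in the severe mice. The 4 groups thus separated into 3 levels, with no overlap between control, moderate and severe mice. The log2 fold change was 2.60 ± 0.25 in the moderate model (adjusted p = 1.3e-06) and 3.12 ± 0.25 in the severe model (adjusted p = 6.32e-08), 6.08-fold and 8.70-fold. Between the models it was 0.52 ± 0.20 (adjusted p = 0.0428), just past both thresholds. That call was lost without any 1 of 5 mice (the 3 moderate mice and the severe mice 1047 and 1079), where the log2 difference lay between 0.38 and 0.59. An antisense transcript of unknown coding status, AC167363.2, shares 7.68% of the exonic bases of Cdkn1a, and whether reads were counted by strand is not given in the sources used here.

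Ccng1 encodes cyclin G1, which acts in the feedback between p53 and Mdm2. It had 1223, 1114 and 1178 CPM in the controls and 1116, 1145 and 1103 CPM in the FLExD mice. It reached 3072, 2895 and 3598 CPM in the moderate mice. In the severe mice it was at 650, 1219 and 1299 CPM, so that a pair of severe mice lay near the controls and mouse 1047 far below them. Ccng1 rose by 1.44 ± 0.21 on the log2 scale in the moderate model (adjusted p = 4.45e-05) and did not pass the test in the severe model (-0.15 ± 0.20, adjusted p = 0.52). The severe level was lower than the moderate one by a log2 difference of -1.60 ± 0.21 (adjusted p = 3.19e-05). With library size alone and in limma on TPM, Ccng1 was called higher in severe than in control muscle (1.14 and 1.01), and the difference between the models kept its sign and its call. With TMM factors and without mouse 1047 the severe change from control was 0.11 (adjusted p = 0.384) and the difference from moderate -1.34. The same mouse had the lowest summed level of 8 adult fiber markers among the 12 mice, 8249 CPM against 14300 and 14940 CPM in the other severe mice.

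Mdm2 was not called in any comparison with TMM factors. Its levels were 48.7, 45.6 and 52.7 CPM in the controls, 48.8, 45.8 and 47.7 CPM in the FLExD mice and 50.1, 53.5 and 50 CPM in the moderate mice. The severe mice had 33.8, 40.1 and 41.1 CPM, all below every other mouse. The moderate change of 0.07 ± 0.09 on the log2 scale did not pass the test (adjusted p = 0.568), but with library size alone Mdm2 was called higher there (0.67, adjusted p = 8.37e-06). The severe change of -0.35 ± 0.09 had an adjusted p of 0.00241 but was smaller than the threshold of 0.5, so it was not called. Its direction depended on the scaling, and Mdm2 was called higher in severe muscle with library size alone (0.95, adjusted p = 7.37e-08) and in limma on TPM values (0.77, adjusted p = 2.14e-05). Relative to the median of all genes under the same scaling, the severe Mdm2 change was -0.44, -0.44 and -0.02 with TMM factors, library size alone and limma on TPM.

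Of the genes that act in cell death, Bax encodes the protein that opens the outer mitochondrial membrane. The controls had 6.63, 7.66 and 6.26 CPM and the FLExD mice 8.56, 7.83 and 6.08 CPM. The moderate mice had 16.7, 13.9 and 13 CPM and the severe mice 16.3, 15.7 and 17.8 CPM. Bax was thus higher in every mouse of both models than in every single-transgenic mouse, and the ranges of the models overlapped. It rose by 1.08 ± 0.14 on the log2 scale in the moderate model (adjusted p = 1.43e-05) and by 1.28 ± 0.14 in the severe model (adjusted p = 1.03e-06). The difference between the models was 0.20 ± 0.13 (adjusted p = 0.217). The gene model Gm45808 on the same strand shares 12.2% of the exonic bases of Bax, and reads there cannot be assigned to either with certainty.

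Pmaip1 (Noxa) and Bbc3 (Puma) encode BH3-only proteins, which bind the anti-apoptotic relatives of Bax. Pmaip1 was almost absent from single-transgenic muscle, with 1, 1 and 0 counts in the controls and 0, 0 and 1 counts in the FLExD mice. The moderate mice had 9, 7 and 9 counts (0.284, 0.241 and 0.294 CPM) and the severe mice 121, 62 and 82 counts (2.73, 1.46 and 1.98 CPM). The 3 groups formed 3 separate levels. Set against 3 counts in the shallowest control library, Pmaip1 was at least 1.76-fold higher in the moderate model and at least 13.2-fold higher in the severe model. From moderate to severe the fitted log2 difference was 2.89 ± 0.35. No p is given, because only the severe libraries carried the gene past the filter. Bbc3 stayed below 1.3 CPM in every mouse. It had 0.674, 0.337 and 1.04 CPM in the controls, 0.590, 0.793 and 0.771 CPM in the FLExD mice, 0.946, 1.24 and 0.848 CPM in the moderate mice and 0.789, 0.896 and 1.09 CPM in the severe mice. All groups overlapped, and neither the moderate change of 0.56 ± 0.34 (adjusted p = 0.185) nor the severe change of 0.43 ± 0.33 (adjusted p = 0.265) passed the test. Without control mouse 1349, Bbc3 was called higher in both models, at 0.97 (adjusted p = 0.0396) and 0.86 (adjusted p = 0.0487).

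Eda2r encodes XEDAR, a receptor of the tumor necrosis factor family for the ligand EDA-A2. Its levels were 26.3, 18.1 and 31.1 CPM in the controls and 18.5, 20.5 and 32.5 CPM in the FLExD mice. The moderate mice had 79.1, 69.4 and 76.1 CPM and the severe mice 38.6, 35.6 and 41.8 CPM. Like Ccng1, it was highest in the moderate mice, but every severe mouse still lay above every control. The log2 fold change was 1.57 ± 0.21 in the moderate model (adjusted p = 5.16e-05) and 0.62 ± 0.21 in the severe model (adjusted p = 0.0181), and -0.95 ± 0.20 between severe and moderate (adjusted p = 0.00208). The severe call was lost without control mouse 1246 (0.41, adjusted p = 0.0782), severe mouse 1047 (0.62, adjusted p = 0.0556) or severe mouse 1079 (0.56, adjusted p = 0.0601). The difference between the models was not called with library size alone (-0.26) or in limma on TPM (-0.18).

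Zmat3 (Wig1) encodes an RNA-binding zinc finger protein that controls the stability and splicing of mRNAs. It had 9.38, 8.19 and 11.5 CPM in the controls, 9.10, 7.88 and 7.81 CPM in the FLExD mice, 14.3, 16.8 and 16.2 CPM in the moderate mice and 21, 18.1 and 18.2 CPM in the severe mice. It rose by 0.71 ± 0.13 on the log2 scale in the moderate model (adjusted p = 2.82e-04) and by 0.98 ± 0.12 in the severe model (adjusted p = 6.03e-06). All severe mice lay above all moderate mice, although that difference of 0.27 ± 0.12 did not pass the test (adjusted p = 0.067).

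Phlda3 encodes a PH domain protein that competes with Akt for membrane lipids. Its levels were lowest in the severe mice. The controls had 45.4, 42.4 and 38.2 CPM, the FLExD mice 43.9, 41.0 and 45.5 CPM, the moderate mice 35.8, 34.1 and 32.3 CPM and the severe mice 10.8, 12.4 and 14.1 CPM. The moderate change of -0.30 ± 0.10 on the log2 scale had an adjusted p of 0.0191 and was smaller than the threshold, and its sign was positive with library size alone (0.31) and in limma on TPM (0.18). In the severe model Phlda3 fell, with a log2 fold change of -1.76 ± 0.10 (adjusted p = 2.45e-09). With library size alone this severe fold change was -0.46, short of the threshold. The severe level was also lower than the moderate one (-1.46 ± 0.10, adjusted p = 5.43e-07).

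**Figure D2:**
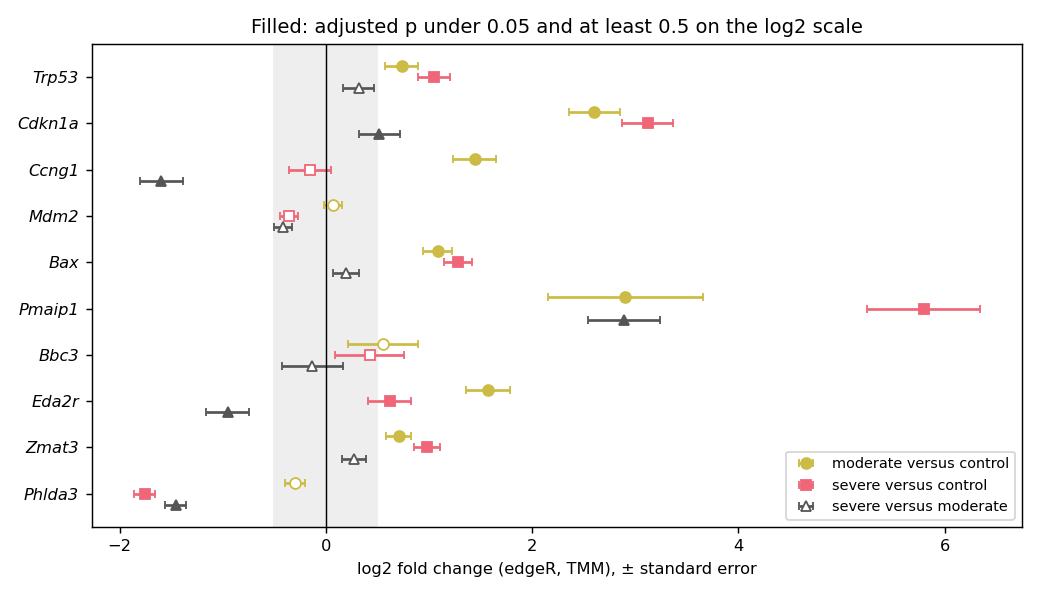
Log2 fold changes from edgeR with TMM factors (horizontal axis) of the 10 genes in 3 comparisons, with bars for ± 1 standard error and grey shading for changes smaller than 0.5. Filled symbols passed both thresholds: 7 genes for moderate versus control, 7 for severe versus control and 5 for severe versus moderate, with Pmaip1 among them each time as a description. The fitted values of Pmaip1 against control rest on 0 or 1 counts per control mouse and depend on the prior count, so its bounds are given in the text.

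The FLExD mice did not differ detectably from the controls at these genes. The ranges of the groups overlapped for all 10 genes, edgeR called 0 of them with an adjusted p of 1 for each, and 0.00600% of all genes tested were called in either direction. At an unadjusted p under 0.05 the count was also 0 of 10, where 638 of the 16679 genes tested passed, and DESeq2 and limma on TPM called 0. Of all genes tested, 4.01% were higher in every FLExD mouse than in every control and 4.59% lower. The fitted log2 differences with over 3 counts in every mouse ran from -0.27 ± 0.31 for Cdkn1a to 0.13 ± 0.14 for Bax.

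The order of the genes per unit of transcript length was read from the authors' TPM, which divide by transcript length. These carry no factor between libraries, and they were above 0 for 164142 of the 164417 entries with a count of 0, so values near 0.1 are no sign of expression. In control muscle Ccng1 led with 373 ± 22.9 TPM (SD, n = 3), followed by Phlda3 with 52.2 ± 3.08 TPM and Mdm2 with 18.1 ± 1.74 TPM. Bax (6.81 ± 0.614 TPM), Eda2r (5.79 ± 1.77 TPM) and Trp53 (4.70 ± 1.05 TPM) followed, each with a range that overlapped that of its neighbor. Cdkn1a (2.20 ± 1.07 TPM), Zmat3 (1.48 ± 0.322 TPM) and Bbc3 (0.917 ± 0.406 TPM) formed a further overlapping run, with Pmaip1 last at 0.130 ± 0.0436 TPM. In severe muscle Ccng1 still led (778 ± 244 TPM), but Cdkn1a had moved from the 7th to the 2nd place (41.0 ± 8.28 TPM). Cdkn1a, Bax (37.9 ± 0.808 TPM), Phlda3 (35.6 ± 2.85 TPM) and Mdm2 (31.5 ± 3.24 TPM) could not be ordered there, because each range overlapped the next.

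The ratio of a target to Trp53 within a mouse does not depend on any scaling between libraries. The Cdkn1a ratio was 0.194 ± 0.114 (SD, n = 3) in the controls, 0.164 ± 0.0332 in the FLExD mice, 0.694 ± 0.129 in the moderate mice and 0.784 ± 0.105 in the severe mice. Relative to Trp53, Cdkn1a was thus higher in every mouse of both models than in every control, while the models overlapped. The ratios of Bax were 0.843 ± 0.271, 1.02 ± 0.0159 and 0.945 ± 0.137 in control, moderate and severe mice, and those of Zmat3 1.14 ± 0.0729, 1.13 ± 0.234 and 1.08 ± 0.0632. For both, the ranges of the models overlapped that of the controls. The Mdm2 ratio was 5.88 ± 0.915 in the controls, 3.65 ± 0.541 in the moderate mice and 2.18 ± 0.390 in the severe mice, lower in each model than in every control. The Phlda3 ratio was 5.14 ± 1.42, 2.42 ± 0.224 and 0.710 ± 0.155 in the same groups. The Ccng1 ratio differed in both directions, with 142 ± 28.7 in controls, 229 ± 53.4 in moderate mice and 60.8 ± 24.0 in severe mice. Eda2r had 2.94 ± 0.330, 5.32 ± 0.692 and 2.20 ± 0.338 in the same order. Over the 9 targets, 4 ratios were higher in all moderate mice than in all controls, where 11.5% of the other genes tested were, and 2 were lower, where 51.0% were. In the severe model 2 were higher, where 14.9% of the genes were, and 4 lower, where 61.5% were. The 3 others overlapped in each model, and in the FLExD mice all 9 overlapped.

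**Figure D3:**
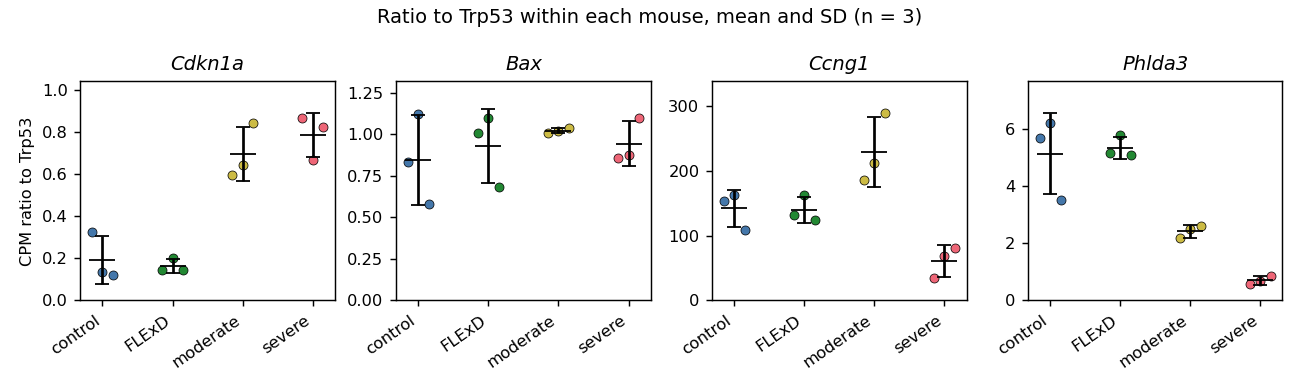
Ratio of the CPM of Cdkn1a, Bax, Ccng1 and Phlda3 to that of Trp53 in the same mouse (vertical axes, from 0, with a separate scale for each gene) in the 4 groups. Points are single mice, and bars are the mean and SD of 3 mice. Cdkn1a averaged 0.194 in the controls and 0.784 in the severe mice, the Bax groups overlapped, Ccng1 averaged 142, 229 and 60.8 in control, moderate and severe mice, and Phlda3 5.14, 2.42 and 0.710.

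Among 13 regulators and relatives of p53, 12 passed the filter on low counts (Trp73 did not), Cdkn2a only through its severe libraries. Of the 11 others, 4 were called higher and 0 lower in moderate muscle, where 24.4% and 17.0% of all genes were, and 5 higher and 1 lower in severe muscle, where 32.9% and 27.9% were. Chek1, called higher in both, passed the filter only through moderate and severe libraries, so its calls against control are a description. At an unadjusted p under 0.05, 4 of the 12 were lower in the moderate model, with 0 called lower by DESeq2 or limma. At that unadjusted p, 9788 of the 16679 genes tested differed in either direction. In severe muscle all 12 were called higher and 0 lower with library size alone and in limma on TPM, where 75.4% and 64.1% of all genes were called higher. Wrap53, which lies head to head with Trp53 on the opposite strand with 103 bases between the genes, had 3.94 ± 0.583 CPM in the controls, 37.9 ± 0.589 CPM in the moderate mice and 14.6 ± 3.51 CPM in the severe mice (SD, n = 3). Its log2 fold change of 3.27 ± 0.18 in the moderate model (adjusted p = 7.99e-09) was followed by 1.89 ± 0.17 in the severe model (adjusted p = 2.4e-07). The encoded protein guides telomerase RNA to Cajal bodies. Trp63, which encodes the p53 relative p63, also peaked in the moderate mice, with log2 fold changes of 2.04 ± 0.18 (adjusted p = 8.64e-07) and 0.92 ± 0.18 (adjusted p = 4.48e-04). Between severe and moderate mice Wrap53 differed by -1.38 ± 0.15 (adjusted p = 8.88e-06) and Trp63 by -1.12 ± 0.17 (adjusted p = 1.32e-04). The Wrap53 difference was also called with library size alone (-0.69) and in limma on TPM (-0.63), and the Trp63 difference under neither (-0.43 and -0.44).

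Of the kinases and adaptors that signal DNA damage to p53, Chek1 (2.58 and 3.80 in the moderate and severe model) and Trp53bp1 (1.43 and 1.71) rose on the log2 scale in both models. Chek2 rose in the severe model (1.29) and was at 0.37 in the moderate one. The kinases Atm (-0.20 and 0.09) and Atr (0.27 and 0.35) were not called with TMM factors. Cdkn2a, whose locus encodes the CDK inhibitor p16 and the Mdm2 inhibitor p19Arf, had 0 counts in every control and 27 to 36 counts in the severe mice, at least 4.61-fold higher. In the moderate mice it had 1 to 4 counts, too few for a fold. Genes that restrain p53 or set its stability were not called in the moderate model with TMM factors, with log2 fold changes of -0.21 for the Mdm2 partner Mdm4, 0.26 for the phosphatase Ppm1d, -0.33 for the deubiquitinase Usp7 and -0.47 for the ubiquitin ligase Rchy1. In the severe model Rchy1 was called lower with TMM factors (-0.55 ± 0.08, adjusted p = 2.48e-05) and called higher with library size alone (0.75, adjusted p = 1.92e-06) and in limma on TPM (0.61, adjusted p = 1.44e-04), so its direction depended on the scaling.

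The other established p53 targets, 32 genes, all passed the filter, Psrc1 only through its severe libraries. Of the 31 others, 13 were called higher and 7 lower in moderate muscle, where 24.4% and 17.0% of all genes were, with a median log2 fold change of 0.25. Severe muscle had 13 called higher and 7 lower, where 32.9% and 27.9% of all genes were, with a median of 0.40. Gtse1, Pidd1, Gdf15 and Trp53cor1 would not have passed the filter without the moderate and severe libraries. Their calls against control are thus a description. Of the 7 called lower in severe muscle, 3 were still called lower with library size alone and in limma on TPM. Psrc1, a mitotic spindle gene, had at most 2 counts in any control and was at least 10.8-fold higher in severe muscle. That rise is a description with no rank, because only its severe libraries carried Psrc1 past the filter. The other severe rises were led by Gtse1, among called genes averaging 50 or more counts in whichever group stood higher. Gtse1 is also a mitotic spindle gene, had at most 2 counts in any control and was at least 24.7-fold higher. Pidd1 (2.80 ± 0.45, listed as Lrdd), the scaffold of the PIDDosome, Apaf1 (2.03 ± 0.11), the scaffold of the apoptosome, and the kinase Plk2 (2.02 ± 0.13) followed on the log2 scale. Among genes above the same count, the severe falls were led by Ak1 (-3.11 ± 0.18), the adenylate kinase of muscle, Ddit4l (-2.62 ± 0.21), an inhibitor of mTOR signaling, and Tigar (-2.38 ± 0.17, listed as 9630033F20Rik), a regulator of glycolysis. These 3 were also called lower with library size alone and in limma on TPM. The nuclease gene Aen (-1.28 ± 0.07) and Rrm2b (-1.23 ± 0.12), the p53-inducible subunit of ribonucleotide reductase, were called lower with TMM factors but not with library size alone (0.02 and 0.07) or in limma on TPM (-0.09 and 0.02). Adjusted p for the genes named here other than Psrc1, Gtse1, Pidd1, Gdf15 and Trp53cor1 was at most 2.77e-07 in edgeR with TMM factors. Between the models, 5 of the 31 were called higher in severe muscle, where 17.6% of all genes were, and 9 in moderate muscle, where 18.8% were.

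Ccng1 and Eda2r were not alone in peaking in the moderate model with TMM factors. Ephx1, microsomal epoxide hydrolase, and Gadd45a, a growth arrest and DNA damage gene, were called higher in the moderate than in both the control and the severe mice. These and Gdf15 and Perp, shown in the plot of the models, were singled out after their values were seen. Ephx1 had log2 fold changes of 3.41 ± 0.29 and 2.02 ± 0.28 against control (adjusted p = 1.98e-06 and 4.33e-05) and -1.39 ± 0.26 between severe and moderate (adjusted p = 0.00112). Gadd45a had 1.37 ± 0.24 in the moderate model (adjusted p = 4.31e-04), 0.42 ± 0.24 in the severe model (adjusted p = 0.132) and -0.95 ± 0.23 between them (adjusted p = 0.00451). The difference between the models was also called for Ephx1 with library size alone (-0.71) and in limma on TPM (-0.75), but not for Gadd45a (-0.25 and -0.17), which was called higher in severe than in control muscle under both.

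**Figure D4:**
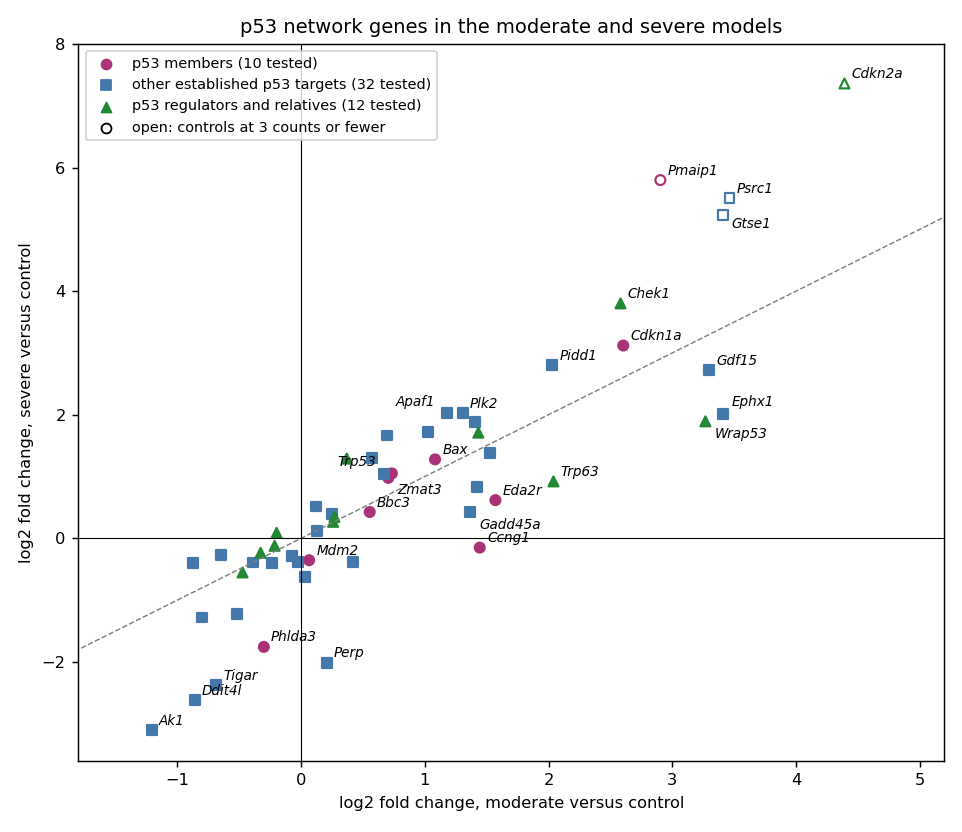
Log2 fold changes against control (edgeR, TMM factors) in the moderate model (horizontal axis) and the severe model (vertical axis) for the 10 genes (circles), 32 other p53 targets (squares) and 12 regulators and relatives (triangles). Both axes share the same 3 control mice, open symbols are genes with at most 3 counts in any control, whose fitted values depend on the prior count, and the dashed line marks equal change. Wrap53, Trp63, Ephx1, Gadd45a, Eda2r and Ccng1 lie below the line, with moderate values between 1.37 and 3.41, and Pmaip1 and Chek1 lie above it.

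p21 halts division in part by leading the DREAM repressor complex to the promoters of cell cycle genes. All 11 genes of a list of such targets were called higher in the moderate and the severe model, where 24.4% and 32.9% of all genes were. Of these, Ccnb1, Ccnb2, Cdc25c, Cdk1, Foxm1, Mybl2 and Plk1 passed the filter on low counts only through moderate and severe libraries. Their calls against control are thus a description. All 11 were also called higher in severe mice than in moderate ones, where 17.6% of all genes were. The largest fitted changes in the severe model were those of Cdk1, Ccnb1 and Cdc25c, the kinase, cyclin and phosphatase of mitotic entry, which had at most 2 counts in any control. They were at least 100-fold, 114-fold and 16.9-fold higher there, and the bound of Cdc25c lies below the fitted 77.8-fold of Ccna2, so its place among the largest is not established. The summed level of the list was 2.31 to 3.11 CPM in the controls, 32.9 to 45.5 CPM in the moderate mice and 111 to 143 CPM in the severe mice. Cdkn1a and these genes were thus higher in the same libraries.

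Marker genes of other cell types differed between the same groups. The summed level of 8 adult fiber markers was 132800 to 178200 CPM in the controls, 56620 to 68710 CPM in the moderate mice and 8249 to 14940 CPM in the severe mice, and none was at 0 in any group. The 6 macrophage and leukocyte markers summed to 59.6 to 74.2, 344 to 437 and 750 to 857 CPM. All 6 were called higher in the moderate and the severe model, where 24.4% and 32.9% of all genes were. The 5 regenerating muscle markers summed to 21.1 to 28.7, 328 to 584 and 1235 to 1750 CPM, the 5 fibroblast markers to 633 to 1547, 2278 to 2410 and 3808 to 4926 CPM, and the 4 endothelial markers to 137 to 156, 88.2 to 115 and 60.2 to 72.3 CPM. Of the 5 fibroblast markers, 2 (Col3a1 and Pdgfra) were called higher in severe than in control muscle, where 32.9% of all genes were. Dcn was called lower there in edgeR with TMM factors (-0.79, adjusted p = 2.88e-05), where 27.9% of all genes were. With library size alone Dcn was called higher (0.51). Col3a1 made up the largest share of the sum in both models. Of the 4 endothelial markers, Pecam1 averaged 35.2 CPM in control and 57.09 CPM in severe mice with library size alone. Cdh5 had 26.35 and 29.22 CPM there, Tie1 16.42 and 20.85 CPM and Kdr 27.27 and 12.88 CPM. The direction of the endothelial markers other than Kdr thus depended on the scaling. The 4 proliferation markers summed to 25.6 to 28.5, 100.3 to 118 and 249 to 308 CPM with TMM factors. In bulk muscle, fewer cells of a type and less RNA per cell cannot be told apart, and the part of these shifts in the changes of the p53 genes was not tested.

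**Figure D5:**
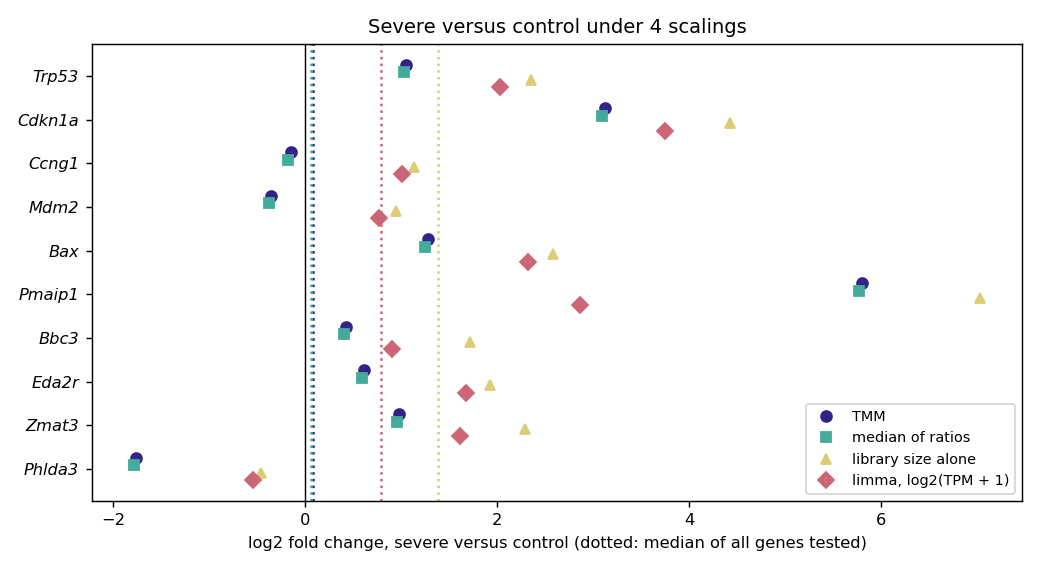
Log2 fold changes of the 10 genes in the severe model against control (horizontal axis) under 4 scalings, with the median of all genes tested under each as a dotted line. The median was 0.08 with TMM, 0.06 with median-of-ratios factors, 1.39 with library size alone and 0.79 in limma on log2(TPM + 1). Mdm2 and Ccng1 lie on either side of 0 depending on the scaling, and Phlda3 lies below 0 under all 4.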

How the data were processed

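The authors trimmed single-end reads of 50 bases, mapped them to mm10 (GRCm38) transcripts merged from UCSC, Ensembl 71 and MISO with RSEM 1.2.4 running Bowtie, mapped the rest with TopHat 2.0.8b, and deposited expected counts without normalization. The authors also deposited TPM values, used here to compare genes and in limma. RSEM divides reads that map to several genes. Expected counts were rounded and tested with edgeR 4.0.16 in R 4.3.3 (filterByExpr, TMM, robust quasi-likelihood F-test) in 1 fit of all 12 mice, with contrasts between groups and Benjamini-Hochberg adjustment. The alternatives were DESeq2 1.42.0, limma 3.58.1 on log2(TPM + 1), library size alone, median-of-ratios factors, no filter, a filter of 10 counts in each library, fits of 2 groups, no fold threshold or 1, and each mouse left out. The edgeR and DESeq2 tests were tried on simulated data with 200 changed genes and the same means in all groups elsewhere. That setting does not bear on the choice of scaling. Floors cover counting error only. Genes and lists were chosen with earlier results of these data known. All 10 genes, the regulators and CDK inhibitors may be named, of the other targets the 5 largest severe rises and falls where the higher group averaged 50 counts or more, of the DREAM list the 3 largest changes, and for Trp53 and Cdkn1a the 5 most similar genes. Libraries were grouped by the GEO labels. In the main fit, each p-value tests a difference between groups against a spread between mice estimated over all 4 groups. Positions came from GENCODE M21 and promoter sequences from RefSeq. Figures were drawn with matplotlib 3.10.9.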

Additional observations from a re-analysis of the deposited data

Results flagged for a closer look

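For 5 of the 10 genes the effect in the severe model differed from that in the moderate model by edgeR's test of the difference between the models, which share their controls, a test by which severe muscle exceeded moderate muscle for 17.6% of all genes and fell below it for 18.8%. Pmaip1 passed the filter on low counts only through its severe libraries, so its value is a description. On the log2 scale, severe minus moderate was 0.52 for Cdkn1a, 2.89 for Pmaip1, -1.60 for Ccng1, -0.95 for Eda2r and -1.46 for Phlda3. The first of these was just past the thresholds and was not called when any 1 of 5 mice was left out. The Eda2r difference was not called with library size alone (-0.26) or in limma on TPM (-0.18).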

How the results depend on the processing

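Median-of-ratios factors, DESeq2, no filter and a fit of only the 2 groups changed no call of the 10 genes in any comparison to which they gave a value. Library size alone and limma on TPM, which leave the median of all genes in the severe model at 1.39 and 0.79, changed several. With these, respectively, the sign turned for Mdm2 (severe versus control 0.946 and 0.766, severe versus moderate 0.275 and 0.286), Ccng1 (severe versus control 1.139 and 1.006) and Phlda3 (moderate versus control 0.308 and 0.182). The genes called higher in severe than moderate muscle were 5 under both in place of 2 (Trp53, Bax and Zmat3 beside Cdkn1a and, as a description, Pmaip1). Bbc3 was called higher in both models under both. The genes called lower in severe than control muscle were 0 with library size alone, in place of 1. Of the 32 other targets, Psrc1 included, library size alone gave 22 higher and 1 lower in moderate muscle, and limma 1 lower. The shares of all genes were 52.5% higher and 4.51% lower with library size alone, and 4.42% lower in limma. In the severe model 26 were higher and 3 lower under both. There 75.4% and 64.1% of all genes were higher and 6.42% and 5.92% lower. Between the models 18 and 16 were higher, where 57.8% and 48.2% of all genes were, and 5 and 4 lower, where 4.93% and 3.77% were. Requiring at least 10 counts in every sample left 9 other targets higher in the moderate model and 1 of the 10 genes higher between the models, since that filter removes genes absent from controls. A log2 threshold of 1 left 1 other target lower in the moderate model, 2 higher and 5 lower between the models, and 1 of the 10 genes higher between the models. With no fold threshold, 1 of the 10 genes was lower in moderate and 2 in severe muscle. Leaving out 1 mouse at a time gave 1 to 2 of the 10 genes higher between the models, with Pmaip1 among them as a description. The shares of all genes under these filters, thresholds and omissions are not given here, so these counts show only how the calls moved.

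No paired analysis was possible because the groups share no replicate numbers. With 3 mice a group, an effect such as that of Bbc3, at 0.337 to 1.24 CPM, was not resolved at this depth.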

Other observations

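Among the CDK inhibitors other than Cdkn1a, Cdkn1c, which encodes p57, rose from 12.8 ± 1.14 CPM in the controls (SD, n = 3) to 24.4 ± 6.29 CPM in the moderate mice and 91.5 ± 17.5 CPM in the severe mice, with log2 fold changes of 0.92 ± 0.19 (adjusted p = 0.00127) and 2.83 ± 0.20 (adjusted p = 3.75e-08), and it was called higher in both with library size alone and in limma on TPM. Cdkn1b, which encodes p27, was called lower in both models with TMM factors (-1.05 ± 0.08, adjusted p = 2.04e-07, and -0.78 ± 0.08, adjusted p = 9.6e-07). With library size alone and in limma on TPM it was still below the controls in the moderate mice (-0.44, not called, and -0.62, called) but above them in the severe mice (0.53, called, and 0.23, not called), so the severe direction depended on the scaling. Cdkn2c was called lower in the moderate model with TMM factors (-0.56 ± 0.21, adjusted p = 0.0349) and under neither of the other scalings (0.05 and -0.17). Its severe change was 0.12 ± 0.20 (adjusted p = 0.611) with TMM factors and was called higher under the other two (1.42 and 0.99). Cdkn2b and Cdkn2d were not called in either model with TMM factors. Of the 6 CDK inhibitors, Cdkn2a included, library size alone called 6 and limma 5 higher in severe muscle and 0 lower, where 75.4% and 64.1% of all genes were called higher.

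Over the 12 mice, the 5 genes with the highest Pearson correlation with Trp53 on the log2(CPM + 1) scale, among 13333 genes with a mean of at least 1 CPM, were Cysltr1 (0.982), Arrdc1 (0.973), Ddost (0.973), Tmem165 (0.973) and Epsti1 (0.973). For Cdkn1a they were Slc29a3 (0.994), Mettl9 (0.993), Ifih1 (0.992), Tapbp (0.991) and Ptpn1 (0.989). The mice fall into groups, so these values describe a shared pattern over the groups and are given with no p.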
